A study of Mus musculus with 55 samples.

Results

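The Peg10-Sgce imprinted cluster was followed through 6 genes of mouse chromosome 6, chosen by name: *Casd1*, *Sgce*, *Peg10*, *Ppp1r9a*, *Pon2* and *Asb4*. All 6 are among the 51734 genes of the oocyte count tables and among the 24421 genes of the embryo allelic tables. RNA-seq was made from single fully grown oocytes (FGOs), from single wild-type MII oocytes (the stage reached after maturation of the FGO) and from embryos. FGOs came from females 10 to 12 weeks old that were wild type (18 libraries), homozygous for the D124A change in *Dnmt3L* with wild-type *Dnmt3a* (*Dnmt3L ADD/ADD*, 8), homozygous for the ADA allele of *Dnmt3a* with wild-type *Dnmt3L* (*Dnmt3a ADD/ADD*, 8), or homozygous for both (double mutant, 8). There were 10 MII libraries, and 3 of whole embryos labelled embryonic day 9, from oocytes of double mutant females and sperm of wild-type males. By the study's methods, MII oocytes were obtained after injection of inhibin antiserum and chorionic gonadotropin. The embryos were made from such oocytes by fertilization in vitro and were carried by ICR females. The mutations were carried in every cell of the mutant females, which had been backcrossed to C57BL/6J. JF1 sperm supplied the sequence differences that tell the embryos' alleles apart. The labels do not say which oocytes shared a mother, so p-values measure only the spread between single oocytes.

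An imprinted gene is read from 1 parental chromosome according to DNA methylation laid down in the germ line. In growing oocytes the methyltransferase DNMT3A and its cofactor DNMT3L methylate the control region at the shared *Peg10* and *Sgce* promoters. That mark is kept on the maternal chromosome after fertilization, so that both genes are normally read from the paternal one. The ADD domains of both proteins bind histone tails that carry no methyl group at a site marking active promoters. *Peg10* is a gene derived from a retrotransposon and is needed for formation of the placenta. *Sgce* encodes epsilon-sarcoglycan, a membrane protein. *Ppp1r9a* (neurabin, an actin-binding scaffold), *Asb4* (a subunit of ubiquitin ligases) and *Pon2* (a paraoxonase) are farther from the control region and are known for maternal bias in some tissues, the placenta above all. *Casd1* encodes an enzyme that acetylates sialic acid.

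In the coordinates of the count files (mm10) the 6 genes span 832 kb. *Casd1* (4600839 to 4643355, plus strand) comes first, followed by *Sgce* (4674350 to 4747207, minus strand) and *Peg10* (4747306 to 4760517, plus strand). The annotated 5′ ends of *Sgce* and *Peg10* stand head to head, 99 bp apart. *Ppp1r9a* (4902917 to 5165661, plus strand), *Pon2* (5264147 to 5298455, minus strand) and *Asb4* (5383386 to 5433022, plus strand) begin 156, 551 and 636 kb from the start of *Peg10*. No other annotated gene overlaps *Sgce*, *Peg10* or *Asb4*. *Gm44424*, on the strand opposite *Pon2*, held 16 counts over the 52 oocyte libraries against 160 for *Pon2*, and the counting is not stated to use strand, so the few *Pon2* counts are uncertain.

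Promoter windows of 300 bases in RefSeq (GRCm38.p6) were matched for 4 of the 6 genes, *Casd1*, *Ppp1r9a*, *Pon2* and *Asb4*. By the study, the complex of DNMT3A and DNMT3L methylates both CG and non-CG sites. The dinucleotide CG was counted in each window. The median over 32851 windows was 7. The windows held 23 and 5 CG for the 2 starts of *Casd1*, 48 and 10 for those of *Ppp1r9a*, 31 for *Pon2*, and 6 and 8 for those of *Asb4*. As many as 48 were found in 1.22% of all windows, and 6 or more in 56.4%. These counts describe the windows only. No window was matched for *Peg10* or *Sgce*, so their shared promoter region was not counted. Printed below are the densest of the matched windows, chr6:4903061-4903360 on the plus strand at *Ppp1r9a*, and a sparser one. The latter is the window at the annotated 5′ end of *Asb4*, chr6:5383136-5383435 on the plus strand. Each CG, which reads alike on both strands, is in capitals.
Ppp1r9a: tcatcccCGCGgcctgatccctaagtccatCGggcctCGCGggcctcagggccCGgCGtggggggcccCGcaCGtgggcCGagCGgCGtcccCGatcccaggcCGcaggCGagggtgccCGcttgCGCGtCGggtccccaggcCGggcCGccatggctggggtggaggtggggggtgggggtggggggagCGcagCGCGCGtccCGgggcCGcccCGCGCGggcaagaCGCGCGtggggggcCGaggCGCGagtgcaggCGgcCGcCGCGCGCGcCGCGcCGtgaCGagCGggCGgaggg
Asb4: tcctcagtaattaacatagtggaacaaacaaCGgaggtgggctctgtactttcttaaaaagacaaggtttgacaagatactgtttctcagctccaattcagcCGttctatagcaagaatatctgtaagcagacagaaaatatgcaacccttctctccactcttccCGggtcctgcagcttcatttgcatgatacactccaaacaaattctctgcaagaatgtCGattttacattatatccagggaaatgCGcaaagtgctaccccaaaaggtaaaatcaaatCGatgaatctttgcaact

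The oocyte libraries held 7832458 to 23739871 counts. They part by the share of reads mapped, as given in the study's read summary. It was under 80% in 8 wild-type FGOs, in all 8 double mutant FGOs, in 3 with the mutation in *Dnmt3a* alone, in 0 with the mutation in *Dnmt3L* alone and in 3 MII oocytes, and at least 80% in the other 30 libraries. The class could be set apart from genotype only in part, so values that take it into account are given beside the calls. The 9 oocyte markers summed to 6425 to 10259 CPM (counts scaled to a common library total after TMM normalization) in wild-type FGOs and to 6450 to 7070 CPM in MII oocytes. In double mutant FGOs they summed to 9320 to 10351 CPM, without overlap with *Dnmt3L ADD/ADD* (6273 to 8397 CPM) or *Dnmt3a ADD/ADD* FGOs (5895 to 7593 CPM). Markers of theca and interstitial cells (6 genes) summed to a median of 24.0 CPM (12.4 to 115) in wild-type and 3.60 CPM (1.89 to 5.38) in double mutant FGOs, with 1 of the 6 at 0 in every library of either group. The 7 stroma markers summed to a median of 6.69 CPM (4.13 to 28.1) in wild-type and 1.47 CPM (0.833 to 2.98) in double mutant FGOs, where 2 of the 7 were at 0 in every library (none in wild type). The 8 granulosa markers summed to 99.1 to 167 CPM in wild-type and 107 to 137 CPM in double mutant FGOs. The part of these differences in the results below was not tested. Transcript levels of *Dnmt3a* and *Dnmt3l* passed no test between FGO genotypes (log2 differences from wild type up to 0.19, that of *Dnmt3l* with the mutation in *Dnmt3L* having edgeR adjusted p = 0.233); the mutations change the protein, so this does not check the labels.

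Levels of different genes can be compared only per length, here as CPM per kb of exon. In wild-type FGOs *Asb4* stood at 2.24 ± 0.825, *Ppp1r9a* at 2.03 ± 0.443 and *Peg10* at 1.67 ± 1.33 CPM per kb (SD, n = 18). These 3 genes lay within their spread of each other. *Casd1* (0.196 ± 0.120), *Sgce* (0.105 ± 0.054) and *Pon2* (0.045 ± 0.043 CPM per kb) were lower. In double mutant FGOs the order of levels was headed by *Peg10*, at 6.80 ± 3.49 CPM per kb (SD, n = 8), followed by *Ppp1r9a* (1.80 ± 0.263) and *Asb4* (1.65 ± 0.625), which lay within their spread of each other. There *Sgce* stood at 0.254 ± 0.096 and *Casd1* at 0.107 ± 0.098 CPM per kb, and in both groups these genes lay within the summed spread of each other.

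**Figure D1:**
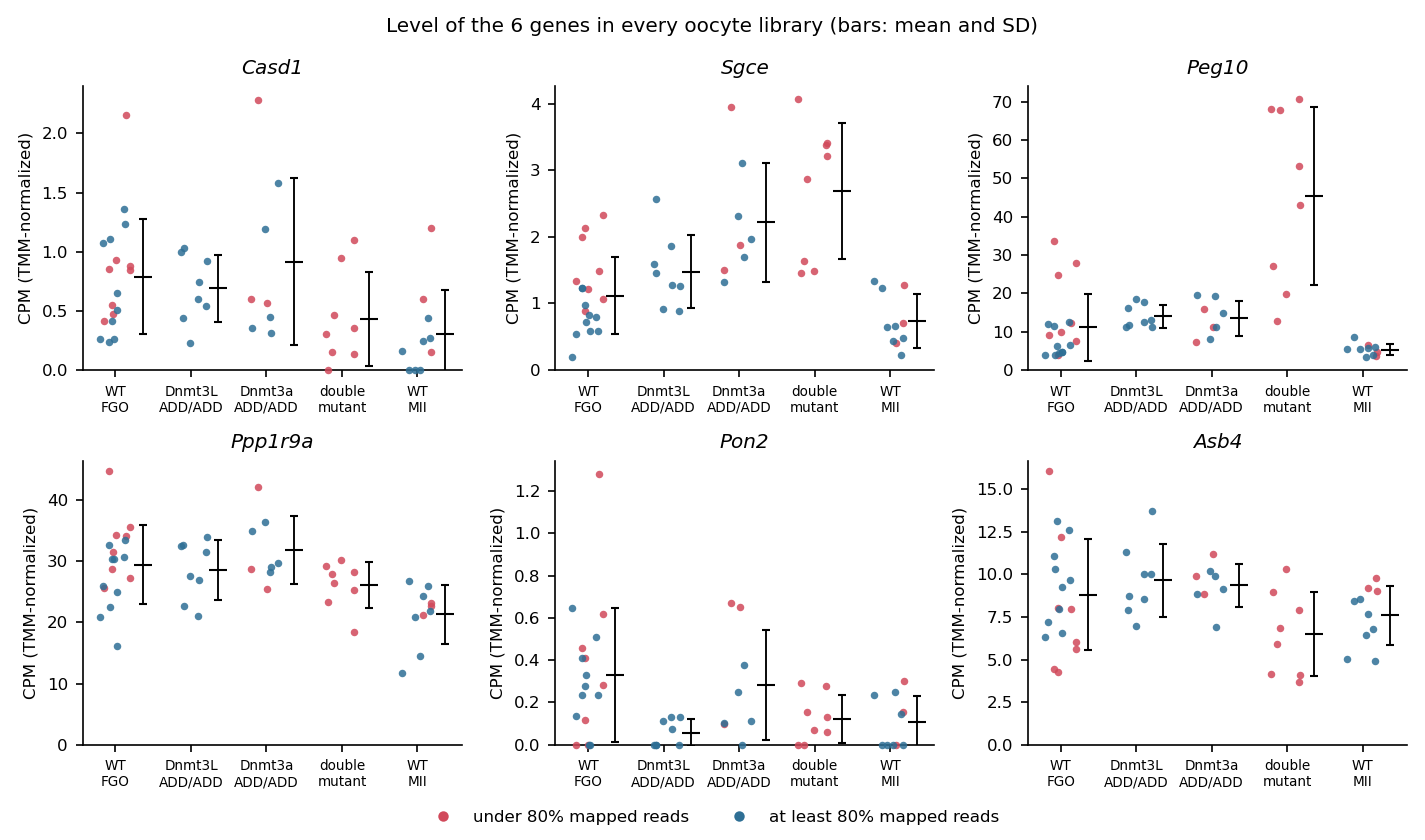
Level of each of the 6 genes in every oocyte library, in TMM-normalized CPM (linear axes from 0), for the 5 groups of oocytes. Points are single oocytes, coloured by the share of mapped reads, and bars give the mean and SD. Of the 8 double mutant FGOs, 5 lie above all 18 wild-type FGOs for *Peg10*, and 5 for *Sgce*.

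The first question was what loss of ADD function in 1 or both proteins did to these genes in FGOs. Against wild type, 2 of the 5 tested genes, *Peg10* and *Sgce*, rose in double mutant FGOs and none fell. In that comparison 1.65% of all 15726 genes tested passed (fold change over 2 and adjusted p under 0.05), and 0.178% passed upward. *Pon2* did not pass the filter on low counts in any oocyte comparison.

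*Peg10* ran from 3.96 to 33.7 CPM in wild-type FGOs (median 8.40), from 11.1 to 18.4 in *Dnmt3L ADD/ADD* FGOs (median 12.8), from 7.40 to 19.5 in *Dnmt3a ADD/ADD* FGOs (median 13.1) and from 12.8 to 70.6 in double mutant FGOs (median 48.1). All 8 double mutant FGOs lay above the wild-type median, 5 of them above the highest wild-type oocyte, and the groups overlapped. The mean was 11.1 ± 8.84 CPM in wild type (SD, n = 18) and rose 4.06-fold in the double mutant, to 45.3 ± 23.3 CPM (SD, n = 8), which is 2.02 on the log2 scale (SE, the standard error, 0.31, edgeR adjusted p = 3.29e-05). This was the largest rise on the log2 scale among all 15726 genes tested. Double mutant FGOs were themselves widely spread. Replicate 1 stood at 12.8 CPM, within the range of the single mutants, and replicate 6 at 19.8 CPM, just above it. Replicates 2, 5 and 3 stood at 27.0, 43.0 and 53.2 CPM in turn, and replicates 4, 7 and 8 at 67.9 to 70.6 CPM.

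The wild-type level of *Peg10* moved with the class of mapped reads. It was 16.2 ± 11 CPM (SD, n = 8) in wild-type FGOs with under 80% mapped reads and 7.06 ± 3.52 CPM (SD, n = 10) in the others, and wild-type replicates 4, 5 and 6, all of the first class, stood at 27.9, 33.7 and 24.8 CPM. When the wild-type side was limited to FGOs with under 80% mapped reads, the log2 difference became 1.48 (SE 0.34, edgeR adjusted p = 0.0171), and when it was limited to the others, 2.68 (edgeR adjusted p = 8.48e-09). These fits called 0.725% and 5.35% of all genes. In a fit that held only libraries with under 80% mapped reads, where 0.655% of all genes passed, the value was 1.47 (SE 0.41, edgeR adjusted p = 0.0937), no longer past the threshold. Each of the 8 double mutant FGOs lay above the median of the wild-type FGOs of that class, and 5 above the highest.

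*Sgce* shares its control region with *Peg10*. It ran from 0.194 to 2.33 CPM in wild-type FGOs (median 1.02), from 0.885 to 2.57 in *Dnmt3L ADD/ADD* FGOs (median 1.36), from 1.32 to 3.95 in *Dnmt3a ADD/ADD* FGOs (median 1.92) and from 1.46 to 4.07 in double mutant FGOs (median 3.04), on 3 to 71 counts per library. All 8 double mutant and all 8 *Dnmt3a ADD/ADD* FGOs lay above the wild-type median, 5 of the former and 2 of the latter above the highest wild-type oocyte. *Sgce* rose 2.40-fold in the double mutant, with means of 2.69 ± 1.02 CPM there (SD, n = 8) and 1.12 ± 0.577 CPM in wild type (SD, n = 18), a log2 difference of 1.26 (SE 0.26, edgeR adjusted p = 0.00168). *Sgce*, too, was higher in wild-type FGOs with under 80% mapped reads (1.55 ± 0.533 CPM, n = 8) than in the others (0.768 ± 0.321 CPM, n = 10). Against the former its log2 fold change was 0.79 (edgeR adjusted p = 0.159), and within that class alone 0.77 (edgeR adjusted p = 0.270), so that *Sgce* was not called in either fit. For *Sgce*, too, each of the 8 double mutant FGOs lay above the median of the wild-type FGOs of that class, and 5 above the highest.

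In single mutant FGOs none of the 5 tested genes passed both thresholds in edgeR's quasi-likelihood test, in its exact test or in DESeq2. At an unadjusted p under 0.05 there were 0 with the mutation in *Dnmt3L* and 1 with that in *Dnmt3a*. Of all genes, 0.655% passed both thresholds in *Dnmt3L ADD/ADD* and 2.05% in *Dnmt3a ADD/ADD* FGOs. *Sgce* had the largest difference, 0.98 on the log2 scale in *Dnmt3a ADD/ADD* FGOs (SE 0.26, edgeR adjusted p = 0.00895), which is 1.98-fold and so short of the second threshold. At any fold 15.7% of all genes passed there. Without wild-type replicate 4, 5, 7 or 8, or without *Dnmt3a ADD/ADD* replicate 1, 2, 4 or 5, *Sgce* passed both thresholds, at 1.08 at the highest. *Peg10* differed from wild type by 0.33 (SE 0.33) in *Dnmt3L ADD/ADD* and 0.28 (SE 0.33) in *Dnmt3a ADD/ADD* FGOs (edgeR adjusted p = 0.570 and 0.597). These values, too, turned on the wild-type FGOs used. Among libraries with at least 80% mapped reads, *Peg10* was higher by 0.99 (SE 0.23, edgeR adjusted p = 0.00785) in the 8 *Dnmt3L ADD/ADD* FGOs than in the 10 wild-type FGOs, and higher by 1.05 (SE 0.26, edgeR adjusted p = 0.0111) in the 5 *Dnmt3a ADD/ADD* FGOs. The latter passed, the former fell short of 2-fold, and 0.721% and 1.19% of all genes passed. There, all 8 *Dnmt3L ADD/ADD* and all 5 *Dnmt3a ADD/ADD* FGOs lay above the wild-type median. Among libraries with under 80%, 3 *Dnmt3a ADD/ADD* FGOs could be set against 8 wild-type FGOs, with a log2 difference of -0.49 (edgeR adjusted p = 0.619). *Sgce* differed between *Dnmt3a ADD/ADD* and wild-type FGOs by 1.40 (edgeR adjusted p = 0.00445) and 0.66 (edgeR adjusted p = 0.269) in these classes, the first past both thresholds. In the class under 80%, 1.5% of all genes passed. In *Dnmt3L ADD/ADD* FGOs *Sgce* differed from all wild-type FGOs by 0.39 (edgeR adjusted p = 0.412), and from those of its own class by 0.91 (edgeR adjusted p = 0.0405, short of 2-fold), where all 8 lay above the wild-type median and 6 above the highest.

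The double mutant was then set against each single mutant. *Peg10* rose by 1.69 (SE 0.39, edgeR adjusted p = 0.00243) from the level of *Dnmt3L ADD/ADD* FGOs and by 1.74 (SE 0.39, edgeR adjusted p = 0.000985) from that of *Dnmt3a ADD/ADD* FGOs on the log2 scale, and 7 of 8 double mutant FGOs lay above every oocyte of either single mutant. It was the only one of the 5 tested genes to pass both thresholds, against 4.03% and 5.86% of all genes. *Sgce* was higher by 0.87 (adjusted p = 0.0413, short of 2-fold, where 24.2% of all genes passed at any fold) than in *Dnmt3L ADD/ADD* FGOs by edgeR. From *Dnmt3a ADD/ADD* FGOs it differed by 0.28 (SE 0.31, edgeR adjusted p = 0.523). With the class of mapped reads as a covariate, the *Peg10* values were 0.91 (edgeR adjusted p = 0.334) and 1.19 (edgeR adjusted p = 0.0582). Every *Dnmt3L ADD/ADD* FGO had at least 80% mapped reads and every double mutant FGO under 80%, so class and genotype cannot be told apart in that pair. Within the class under 80%, *Peg10* was higher than in the 3 *Dnmt3a ADD/ADD* FGOs by 1.96 (edgeR adjusted p = 0.0453), where 3.4% of all genes passed.

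Whether both mutations together differed from the sum of each was tested by a contrast over all 4 genotypes. *Peg10* exceeded the sum by 1.41 on the log2 scale (SE 0.51, edgeR adjusted p = 0.0275), the only one of the 5 genes to pass, in a contrast that 35.6% of all genes passed. The contrast for *Sgce* was -0.11 (SE 0.41, edgeR adjusted p = 0.860). With only the wild-type FGOs of under 80% mapped reads the value for *Peg10* was 1.96 (edgeR adjusted p = 0.00153), with only the others 0.76 (edgeR adjusted p = 0.154), where 43.9% and 31.3% of all genes passed, and with the class as a covariate 0.41 (edgeR adjusted p = 0.691).

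**Figure D2:**
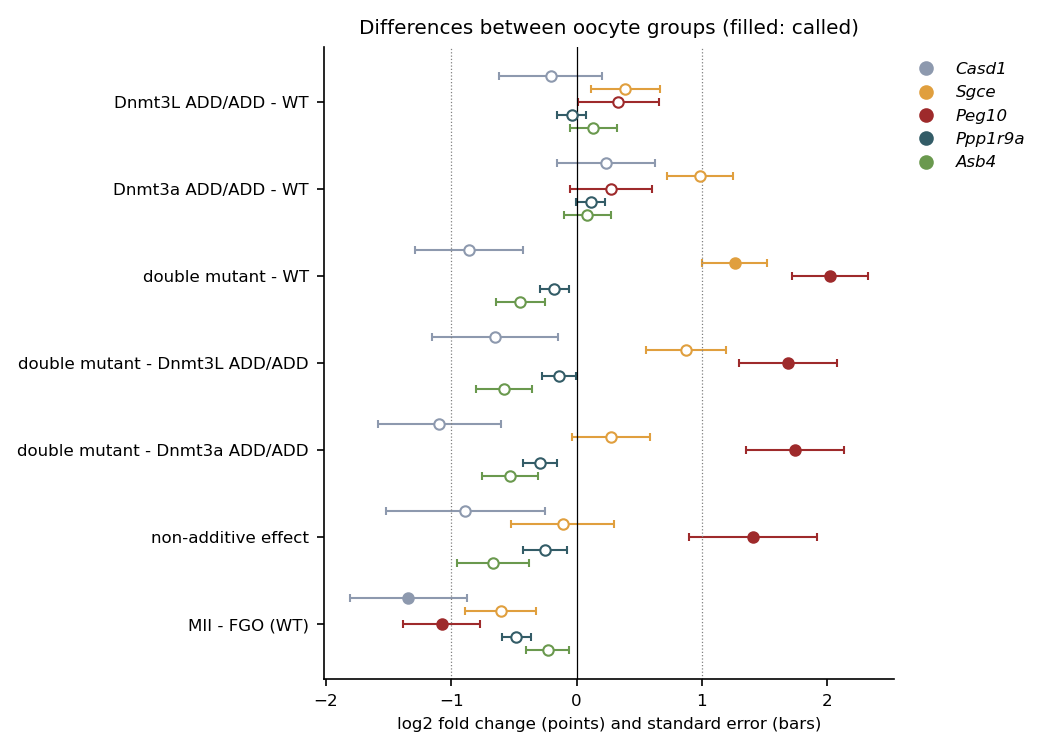
Log2 fold change (points) and SE (bars) of the 5 genes that passed the filter on low counts, for the 7 comparisons of oocytes by edgeR. Filled points passed the thresholds, and dotted lines mark a fold change of 2. *Peg10* lies to the right of all other genes in the double mutant, at 2.02 against wild type.

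The other genes of the cluster did not follow *Peg10* upward. *Asb4* ran from 4.30 to 16.1 CPM in wild-type FGOs (median 7.99) and from 3.68 to 10.3 in double mutant FGOs (median 6.36), with a log2 difference of -0.45 (SE 0.19, edgeR adjusted p = 0.113). Its log2 differences from the single mutants of *Dnmt3L* and of *Dnmt3a* were -0.58 and -0.53 (SE 0.22 in both, edgeR adjusted p = 0.0508 and 0.0630), and 5 of 8 double mutant FGOs lay below every oocyte of each single mutant. *Ppp1r9a* ran from 16.2 to 44.8 CPM in wild-type (median 30.4) and from 18.4 to 30.2 CPM in double mutant FGOs (median 27.1). Its log2 difference between them was -0.18 (SE 0.12, edgeR adjusted p = 0.317). *Casd1* was found at 0 to 2.28 CPM in FGOs, with a log2 difference of -0.86 (SE 0.43, edgeR adjusted p = 0.178) between double mutant and wild type. None of these 3 genes passed in the double mutant against wild type or either single mutant, although *Casd1* did against *Dnmt3a ADD/ADD* FGOs without double mutant replicate 3 (-1.44, edgeR adjusted p = 0.0323) or 6 (-1.34, edgeR adjusted p = 0.0402), and *Asb4* passed the non-additive contrast without wild-type replicate 3 (-0.73) or double mutant replicate 2 (-0.73) or 6 (-0.77). *Pon2* was near the limit of detection. Its counts summed to 91 over the wild-type FGOs (4 of 18 at 0), to 14 over the double mutant (2 of 8 at 0), to 6 with the mutation in *Dnmt3L* alone (4 of 8 at 0) and to 35 with that in *Dnmt3a* alone (1 of 8 at 0), where up to 3 counts remain possible.

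Maturation from FGO to MII oocyte was compared in wild type. *Peg10* ran from 3.51 to 8.52 CPM in MII oocytes (median 5.50), and 9 of 10 lay below the median of the FGOs. *Peg10* fell by 1.08 on the log2 scale (SE 0.31, edgeR adjusted p = 0.00464). *Casd1* fell by 1.34 (SE 0.47, edgeR adjusted p = 0.0195), from 0.790 ± 0.485 CPM (SD, n = 18) to 0.307 ± 0.369 CPM (SD, n = 10), with 3 MII oocytes at 0 counts. These 2 of 5 tested genes compare with 9.2% of all 15784 genes tested, and 9% that fell. *Ppp1r9a* was lower by less than 2-fold, at 21.3 ± 4.79 CPM in MII oocytes (SD, n = 10) and 29.4 ± 6.43 CPM in FGOs (SD, n = 18), and all 10 MII oocytes lay below the FGO median (log2 difference -0.48, SE 0.12, edgeR adjusted p = 0.000954). At any fold 39.1% of all genes passed in that comparison. *Sgce* (-0.60, adjusted p = 0.0847) and *Asb4* (-0.23, adjusted p = 0.293) did not pass in edgeR. When the FGOs were limited to those with at least 80% mapped reads, where 5.26% of all genes passed, *Peg10* differed by -0.41 (edgeR adjusted p = 0.258) and *Casd1* by -1.19 (edgeR adjusted p = 0.0881), so that neither passed. Leaving out wild-type FGO replicate 4, 5 or 6 also took the *Peg10* value under 2-fold, to -0.94, -0.88 and -0.97 in turn.

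The genes around the cluster and other genes read from the paternal chromosome were counted beside it. Within 2 Mb of the start of *Peg10* lie 66 further genes, of which 17 were tested in FGOs. Of these, 1 passed between double mutant and wild-type FGOs. This was *Col1a2*, a collagen gene of the stroma list, which fell from 1.06 ± 0.892 CPM (SD, n = 18) to 0.034 ± 0.063 CPM (SD, n = 8, edgeR adjusted p = 0.00612), and rose in *Dnmt3a ADD/ADD* FGOs to 5.38 ± 9.13 CPM (SD, n = 8, edgeR adjusted p = 0.00490). Against wild-type FGOs with under 80% mapped reads the fall of *Col1a2* did not pass (edgeR adjusted p = 0.0885), and within the class of at least 80% neither did its rise in *Dnmt3a ADD/ADD* FGOs (edgeR adjusted p = 0.227). *Col1a2* also fell in the double mutant against each single mutant, but not past the threshold against *Dnmt3L ADD/ADD* FGOs with the class as a covariate (edgeR adjusted p = 0.177). *Pon3*, a paraoxonase gene 474 kb from *Peg10*, passed upward in the double mutant against both single mutants, by 1.31 against *Dnmt3L ADD/ADD* and 1.70 against *Dnmt3a ADD/ADD* FGOs (edgeR adjusted p = 0.0415 and 0.00759). Its level was 1.76 ± 1.65 CPM in wild-type (SD, n = 18) and 3.05 ± 2.49 CPM in double mutant FGOs (SD, n = 8), and the contrast for a non-additive effect was 2.22 (edgeR adjusted p = 0.00674). With the class of mapped reads as a covariate, none of these 3 values of *Pon3* passed (0.30, 0.99 and 0.91, edgeR adjusted p = 0.833, 0.205 and 0.437). The non-additive contrast was passed by 3 of the 17 genes (*Col1a2*, *Pon3* and *Vps50*), where 35.6% of all genes passed. Between MII oocytes and FGOs 3 of the 17 (*Col1a2*, *Pon3* and *Gm20559*) fell, where 9% of all genes fell, and *Pon3* did not pass when the FGOs were limited to those with at least 80% mapped reads (-0.69, edgeR adjusted p = 0.0984).

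Of 16 other genes that are read from the paternal chromosome beside a maternally methylated control region, 13 were tested. None of the 13 passed between double mutant and wild-type FGOs, by edgeR's quasi-likelihood test, where their median log2 difference was 0.20 and that of all genes -0.0088. At an unadjusted p under 0.05 there were 3, and DESeq2 and edgeR's exact test each called 1, *Peg13*. Against single mutants, *Peg13* had a log2 difference of -1.43 from *Dnmt3L ADD/ADD* FGOs (edgeR adjusted p = 0.0380) and *Impact*, a translation regulator, one of 1.10 from *Dnmt3a ADD/ADD* FGOs (edgeR adjusted p = 0.0213). With the class of mapped reads as a covariate these values were -1.81 (edgeR adjusted p = 0.144) and 0.65 (edgeR adjusted p = 0.293), and neither passed. The non-additive contrast was passed by 4 of the 13 (*Impact*, *Plagl1*, *Mest* and *Snrpn*), where 35.6% of all genes passed, and with the covariate by *Mest* alone of these 4. Between MII oocytes and FGOs, where 9% of all genes fell, *Kcnq1ot1*, *Peg13* and *Impact* fell, and of these *Peg13* alone passed when the FGOs were limited to those with at least 80% mapped reads.

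Across the 42 FGOs, the levels most like that of *Peg10* by Pearson's r of log2 CPM belonged to *Per3* (0.88), a gene of the circadian clock, *Tob1* (0.84), an inhibitor of proliferation, *Pcnx3* (0.84), and *Zfp597* (0.84) and *Zbtb18* (0.84), both zinc finger genes. The 42 oocytes share genotype groups and classes of mapped reads, so the values describe these libraries only. Within the class of at least 80%, over 10 FGOs of wild type, the values were 0.17 (*Per3*), 0.052 (*Tob1*), 0.46 (*Pcnx3*), 0.83 (*Zfp597*) and 0.44 (*Zbtb18*). Over the 8 wild-type FGOs with under 80% mapped reads the 5 values ran from 0.88 (*Zfp597*) to 0.95 (*Per3*). Over the 8 double mutant FGOs they ran from 0.80 (*Zbtb18*) to 0.94 (*Zfp597*). *Sgce* stood at 0.65 (Spearman's rho 0.57), rank 671 of 15725 genes, and at 0.58 without the 2 oocytes farthest from the median of *Peg10*. Within groups the value for *Sgce* was 0.88 over the 8 double mutant FGOs, 0.080 over the 8 wild-type FGOs with under 80% mapped reads and 0.24 over the 10 others. The other genes stood at 0.090 (*Ppp1r9a*), -0.19 (*Casd1*) and -0.50 (*Asb4*).

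The second question was which parental allele gave the transcripts in embryos from double mutant oocytes. The values are counts of reads assigned to the maternal or the paternal allele, 7534598, 8547786 and 6998944 in embryos 1, 2 and 3. In whole embryos, fewer cells of a type and less RNA per cell cannot be told apart. Embryo 2 stood apart from the others. The median maternal share over genes of chromosome 6 was 51.3% in embryo 1, 70.5% in embryo 2 and 51.6% in embryo 3, and over the other autosomes 51.2%, 57.4% and 51.2%. In embryo 2 chromosome 9 (70.5%) was as high as chromosome 6, and the other autosomes lay between 55.4% and 58.8%. Marker lists differed between the embryos as well, and set embryo 1 apart in some cases. The 8 yolk sac markers summed to 173, 4371 and 1691 allelic CPM (counts of both alleles scaled to a common total) in embryos 1, 2 and 3, the 4 heart markers to 1591, 65.6 and 147, and the 4 neural markers to 513, 101 and 224. The 6 trophoblast markers summed to 0.398 (5 of 6 at 0), 74.9 (3 at 0) and 84.2 (4 at 0). The 2 decidua markers summed to 3.19, 29.6 and 10.4, with maternal shares of the summed counts of 58.3%, 84.2% and 45.2%. Gene by gene these shares ran from 80% to 100% in embryo 2 and from 33.3% to 100% in embryo 3. The 7 stroma markers summed to 1009, 632 and 351, with maternal shares of the summed counts of 51.6%, 74.3% and 53.2%. Over stroma genes with at least 10 counts the median share was 55.1% (7 genes), 85.9% (7) and 68.2% (4). The part of these markers in the allelic results was not tested, and mean shares are given with and without embryo 2.

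In embryos 1 and 3 *Peg10* was read from both alleles. Of 8391 allelic counts in embryo 1, 51.2% were maternal (95% Wilson interval 50.1% to 52.3%), and of 13433 in embryo 3, 50.1% (49.2% to 50.9%). In embryo 2 the maternal share was 9.97% of 11189 counts (9.42% to 10.5%). These intervals cover counting error only. Maternal *Peg10* stood at 570, 130 and 961 allelic CPM and paternal *Peg10* at 543, 1179 and 959 in embryos 1, 2 and 3. The sum of both alleles in embryo 2 (1309) lay between those of embryo 1 (1114) and embryo 3 (1919).

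*Sgce* had the same pattern on fewer counts. Its maternal share was 51.0% of 502 counts in embryo 1 (46.6% to 55.3%), 20.9% of 316 in embryo 2 (16.8% to 25.7%) and 48.8% of 389 in embryo 3 (43.9% to 53.8%). In embryo 2 *Peg10* had the lowest and *Sgce* the second lowest maternal share of 504 genes of chromosome 6, at -60.5 and -49.6 percentage points from the chromosome's median. In the other embryos both lay close to it, at -2.77 points or nearer.

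**Figure D3:**
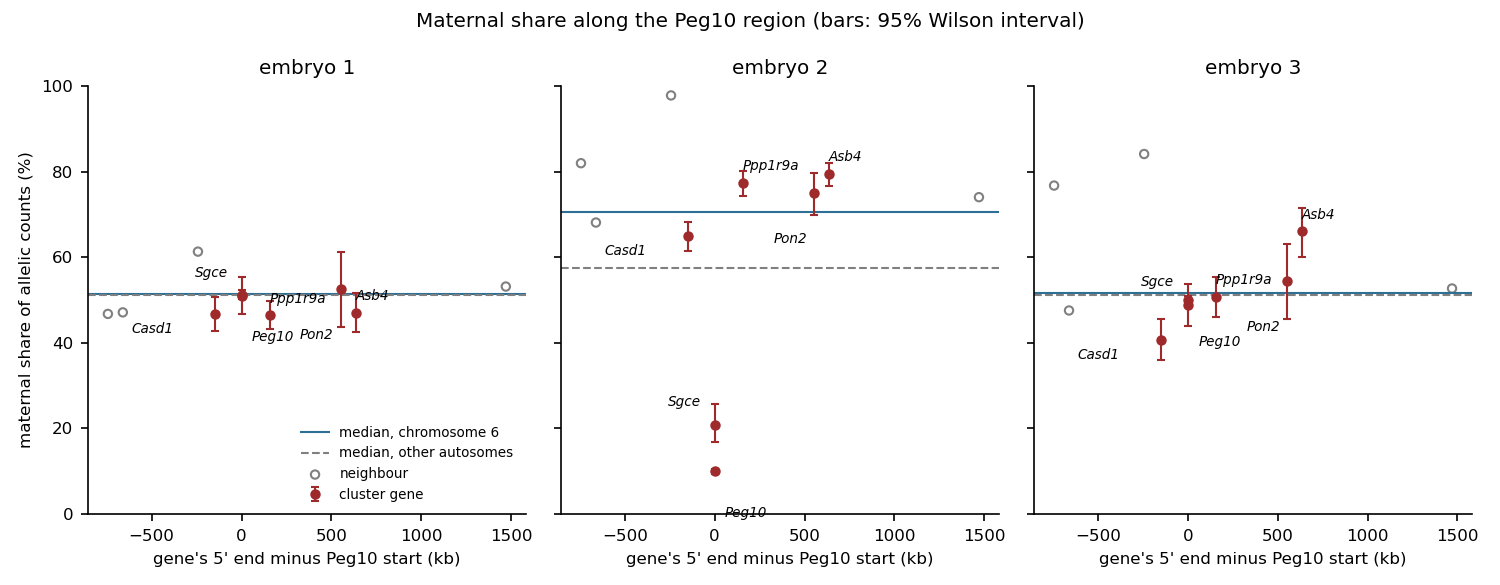
Maternal share of allelic counts (percent) against the distance of each gene's 5′ end from the start of *Peg10* (kb) in the 3 embryos. Filled points are the 6 genes of the cluster with 95% Wilson intervals, open points the 4 neighbours with enough counts, and lines the medians of chromosome 6 and of the other autosomes. *Peg10* and *Sgce* lie at 9.97% and 20.9% in embryo 2 and near the medians in embryos 1 and 3.

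On both sides of *Peg10* and *Sgce* the maternal allele gave more counts than the paternal one in embryo 2. *Ppp1r9a* had a maternal share of 46.5% of 861 counts in embryo 1, 77.4% of 797 in embryo 2 and 50.7% of 420 in embryo 3. *Asb4* had 47.1% of 442, 79.6% of 861 and 66.0% of 265 (60.1% to 71.5%), and was thus above the chromosome's median in embryo 3 by 14.4 points as well. *Pon2* had 52.5% of 120, 75.1% of 297 and 54.5% of 123. In embryo 2 these 3 genes lay 4.63 to 9.10 points above the median of chromosome 6. *Casd1*, with 46.7% of 580, 64.9% of 741 and 40.7% of 396, lay below it in all 3 embryos, at -11 to -4.58 points. By level, the maternal allele of *Asb4* stood at 27.6, 80.1 and 25 and that of *Ppp1r9a* at 53.1, 72.2 and 30.4 allelic CPM in embryos 1, 2 and 3.

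**Figure D4:**
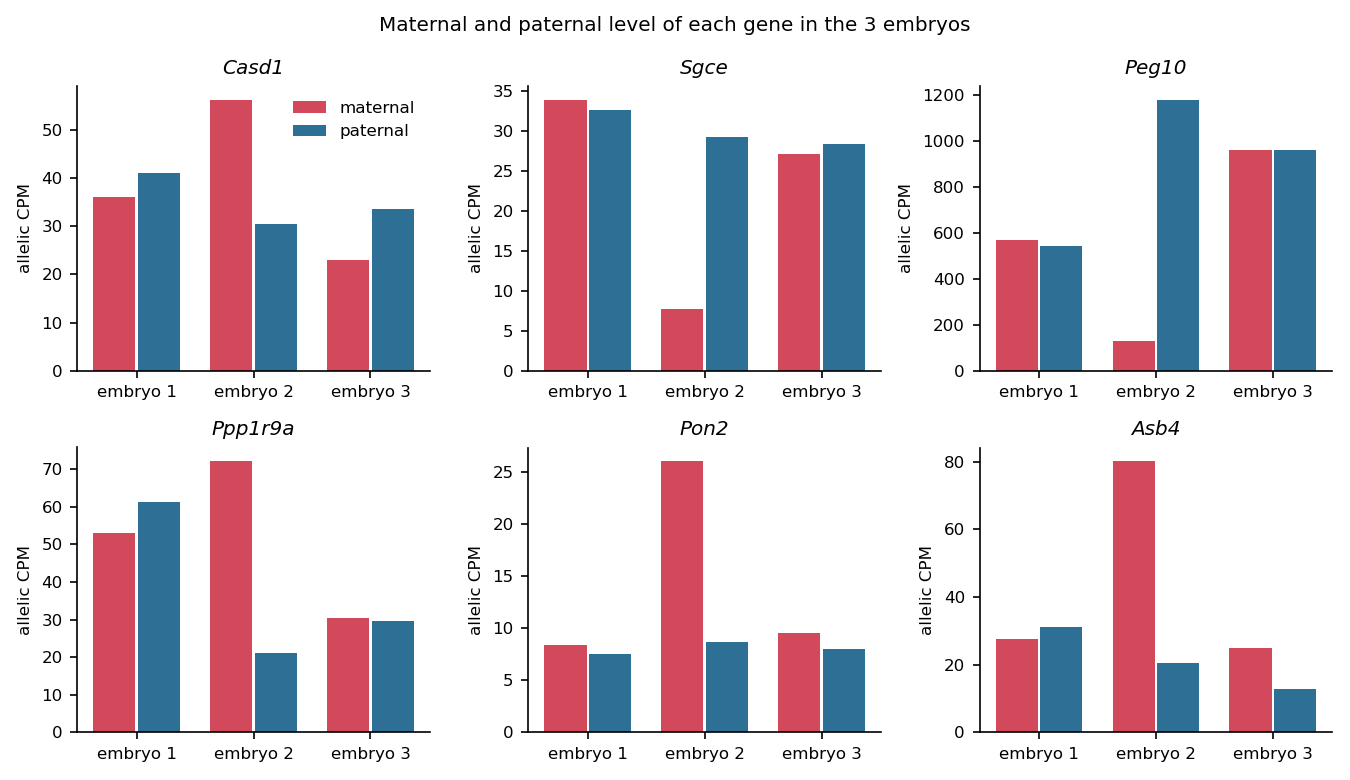
Allelic CPM of the maternal and the paternal allele of each gene (axes from 0) in embryos 1, 2 and 3. Bars are single embryos without error bars. In embryo 2 paternal *Peg10* stood at 1179 and maternal *Peg10* at 130, while the maternal allele was the higher one for *Casd1*, *Ppp1r9a*, *Pon2* and *Asb4*.

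Over the 3 embryos no gene of the cluster passed the test of maternal against paternal counts with the embryo as a block, whereas 0.569% of 10903 genes did. None of the 6 had an unadjusted p under 0.05 in edgeR, and DESeq2 called 0. The log2 ratio of maternal to paternal counts had a median of 0.24 over all genes. The log2 ratio was -0.94 for *Peg10* (SE 0.76, edgeR adjusted p = 0.536), -0.61 for *Sgce* (adjusted p = 0.505), 0.92 for *Asb4* (adjusted p = 0.351), 0.68 for *Pon2* (adjusted p = 0.406), 0.52 for *Ppp1r9a* (adjusted p = 0.547) and 0.052 for *Casd1* (adjusted p = 0.941). The mean maternal share of *Peg10* was 37.1% ± 23.5 (SD, n = 3), and 50.6% without embryo 2. That of *Sgce* was 40.2% ± 16.8 (SD, n = 3), and 49.9% without embryo 2. That of *Asb4* was 64.2% ± 16.3 (SD, n = 3), and 56.5% without embryo 2. Those of *Pon2*, *Ppp1r9a* and *Casd1* were 60.7% ± 12.5, 58.2% ± 16.8 and 50.8% ± 12.6 (SD, n = 3), and 53.5%, 48.6% and 43.7% without embryo 2. Without embryo 2 the log2 ratio was 0.036 for *Peg10* and -0.0043 for *Sgce* (edgeR adjusted p = 0.643 and 0.990). Without embryo 1 *Asb4* passed at 1.48 (edgeR adjusted p = 0.0429), in a fit that called 381 genes, where the fit of all 3 embryos called 62. Of the 4 neighbours with at least 10 counts of each allele on average, none passed in edgeR (0 at an unadjusted p under 0.05, and 0 called by DESeq2). Their median maternal share was 50.1%, 78.0% and 64.7% in embryos 1, 2 and 3, and that of their summed counts 53.3%, 79.4% and 53.6%. In embryo 3 the single values were 84.1% of 107 counts (*Col1a2*), 76.7% of 43 (*Gng11*), 52.7% of 1907 (*Slc25a13*) and 47.6% of 410 (*Bet1*). The 16 other genes read from the paternal chromosome had median maternal shares of 51.3% (14 genes with at least 10 counts), 48.3% (13) and 51.7% (13), and their lowest shares were 0%, 26.6% and 36.6%. A share under 25% was found for 2 of the 14 in embryo 1 and for 0 of the 13 in each of the others. The columns of these tables that are named as wild type match none of the samples given and were not used, so no control share stands beside these values.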

How the data were processed

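RNA-seq was made from single oocytes (SMART-Seq HT) and from whole embryos (poly(A)-selected, directional). The authors deposited raw counts per gene for 52 oocyte libraries, and counts per gene and allele for embryos, from reads aligned to mm10 with STAR. The labels name HTSeq and the study's methods also featureCounts. The annotation release, how strand was set in counting and which tool assigned alleles are not given in the sources used here. In the allelic tables the 3 columns per allele that name the embryos were used, and the other 8, named as wild type, match no sample of the labels and were not used.

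The quasi-likelihood test of edgeR 4.0.16 (R 4.3.3) was run on the counts after filterByExpr (minimum count 10, groups given) and TMM scaling. Genes were called at a p adjusted by Benjamini-Hochberg under 0.05 and, outside the non-additive and allelic tests, a fold change over 2. The 42 FGOs were tested in 1 fit, MII oocytes in a fit of all 52 libraries, sharing the 18 wild-type FGOs, and alleles with the embryo as a block and the embryo's total as library size. CPM were TMM-normalized over 52 libraries, and log2 CPM for correlations used a prior count of 2. The biological coefficient of variation was 25.2% (FGOs) and 33.2% (embryos). No 2 libraries of a group agreed within counting noise (lowest chi-square per degree of freedom 5.39). Medians over chromosomes were taken from genes that averaged at least 10 maternal and 10 paternal counts. DESeq2 1.42.0 and edgeR's exact test, which the study used, served as alternatives. Figures were drawn with matplotlib 3.10.9. In simulated counts, 200 genes were changed by 2 on the log2 scale in the double mutant. Against wild type all 200 were found, with 1 wrong call among 15492 genes. The non-additive contrast also found all 200, with 16 wrong calls. In the simulated embryos, 168 of 200 genes set to a maternal share of 80% were called, with 7 wrong calls among 10282. In the simulated oocytes the changed genes were drawn only from genes above a minimum mean CPM. *Sgce* and *Casd1* lay below that minimum, so these totals give no power for such low genes. Nor were the totals split by level or class of mapped reads.

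The genes named are the 6 of the cluster, neighbours within 2 Mb and 16 other paternally expressed genes if called, the 5 genes most like *Peg10* in level, and *Dnmt3a* and *Dnmt3l*. The members and lists were chosen with earlier results of these data known. The fits within 1 class of mapped reads for both groups were added after the data were seen. Depth was 7832458 to 23739871 counts per oocyte library.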

Additional observations from a re-analysis of the deposited data

Results flagged for a closer look

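*Peg10* in double mutant FGOs departed from the sum of the effects of both single mutants by 1.41 on the log2 scale (edgeR adjusted p = 0.0275), which is why it is listed here. Of all genes, 35.6% passed that contrast. The *Peg10* value was 0.76 (edgeR adjusted p = 0.154) against wild-type FGOs of the higher class (80% or more of reads mapped). With the class of mapped reads as a covariate it was 0.41 (edgeR adjusted p = 0.691). Among the MII oocytes, replicate 6 stood apart from the 9 others for *Casd1*, at 1.20 CPM, where the next highest was 0.599 CPM. In all, 24 sets of libraries were looked at for such single oocytes (6 genes in 4 groups), 1 was found, and chance gives about 1 in 20.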

How the results depend on the processing

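The rise of *Peg10* in double mutant FGOs over wild type kept its direction under all alternatives tried (log2 fold change 1.47 to 2.68) and passed in all but the fit within the class under 80% mapped reads. Without single libraries it ran from 1.90 to 2.21. *Sgce* lost its call there with the class as a covariate (0.90, edgeR adjusted p = 0.0547), with wild-type FGOs of under 80% mapped reads (0.79), with the replicate block (0.77) and within the class (0.77). The causes were not tested. The members called against wild type were 2 in the double mutant, 1 with wild-type FGOs of under 80%, with the class as a covariate and with the block, and 0 within the class. Members called in *Dnmt3a ADD/ADD* FGOs were 0, but 1 with wild-type FGOs of at least 80% and with the covariate, and 2 within that class. With the covariate, members called fell from 1 to 0 in the double mutant against *Dnmt3L ADD/ADD*, against *Dnmt3a ADD/ADD* and in the non-additive contrast, and from 2 to 1 between MII oocytes and FGOs. The non-additive contrast called 2 members with wild-type FGOs of under 80% and 0 with the others, and the MII comparison 0 with wild-type FGOs of at least 80% and 0 within each class.

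Of all genes, 103 were called in *Dnmt3L ADD/ADD* FGOs, but 162 by DESeq2, 60 with the covariate and 615 with wild-type FGOs of under 80%. In *Dnmt3a ADD/ADD* FGOs 322 were called, but 666 without the filter, 791 with wild-type FGOs of under 80% and 185 within the class of at least 80%. In the double mutant 260 were called, but 821 with wild-type FGOs of at least 80%, 110 with those of under 80% and 106 within that class. Against *Dnmt3L ADD/ADD* 633 were called (58 with the covariate), against *Dnmt3a ADD/ADD* 921 (406 with the covariate, 1795 without the filter, 551 within the class under 80%), in the non-additive contrast 5601 (2226 with the covariate), and between MII oocytes and FGOs 1452 (4240 without the filter, 809 with wild-type FGOs of at least 80%, 621 and 705 within the classes of at least 80% and under 80%). In embryos 62 were called, but 112 with chromosome 6 totals, 104 with TMM, 98 without the filter and 747 by DESeq2.

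Values of genes that were not called turned sign as follows. In *Dnmt3L ADD/ADD* FGOs *Sgce* (-0.092) and *Peg10* (-0.21) did so with wild-type FGOs of under 80%, and *Ppp1r9a* (0.10, 0.058 and 0.10) with wild-type FGOs of at least 80%, the covariate and within that class. In *Dnmt3a ADD/ADD* FGOs *Peg10* (-0.27 and -0.49) and *Ppp1r9a* (-0.042 and -0.032) did so with wild-type FGOs of under 80% and within that class, and *Asb4* (-0.0079 and -0.068) with wild-type FGOs of at least 80% and within that class. *Sgce* turned to -0.21 in the double mutant against *Dnmt3a ADD/ADD* with the covariate and to 0.38 in the non-additive contrast with wild-type FGOs of under 80%, *Asb4* to 0.21 between MII oocytes and FGOs within the class under 80%, and the log2 ratio of *Casd1* in embryos to -0.19 with TMM and -0.43 with chromosome 6 totals.

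With the replicate number as a block, 442 genes were called with the mutation in *Dnmt3L* alone, 720 with that in *Dnmt3a* alone and 128 with both, the non-additive contrast called 2 members, and signs turned for *Sgce* (-0.037) and *Peg10* (-0.075) in *Dnmt3L ADD/ADD*, for *Casd1* (-0.14), *Peg10* (-0.22) and *Ppp1r9a* (-0.031) in *Dnmt3a ADD/ADD* FGOs and for *Sgce* (0.27) in the non-additive contrast. The numbers do not pair the oocytes: over 48 pairs of same-numbered FGOs the correlation of deviations from the group means averaged -0.0052 (-0.52 to 0.47), 13 were over 0.1, and 11 of 96 comparisons gave the highest value to the own number. Without the block for embryos no member was called either, and the log2 ratio of *Peg10* was -0.69.

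Leaving out 1 library at a time, the number of members called was 2 throughout in the double mutant against wild type and 0 throughout in *Dnmt3L ADD/ADD*. It ran from 0 to 1 in *Dnmt3a ADD/ADD*, from 1 to 2 in the double mutant against each single mutant (*Sgce* without *Dnmt3L ADD/ADD* replicate 4, 1.01), in the non-additive contrast and between MII oocytes and FGOs, and from 0 to 1 in embryos. Genes called ran from 78 to 123, 227 to 574 (the highest without *Dnmt3a ADD/ADD* replicate 4) and 203 to 338 in the mutants against wild type, 380 (without double mutant replicate 4) to 835 and 706 to 1217 in the double mutant against single mutants, 4926 to 5905, 1277 to 1483, and 0 (without embryo 3) to 381 (without embryo 1) in embryos (22 without embryo 2). Signs turned for *Ppp1r9a* in *Dnmt3L ADD/ADD* (-0.084 to 0.014), *Casd1* in *Dnmt3a ADD/ADD* (-0.12 to 0.38) and *Sgce* in the non-additive contrast (-0.21 to 0.073), and in embryos, without embryo 2, for *Casd1* (-0.37 to 0.35), *Peg10* (-1.58 to 0.036) and *Ppp1r9a* (-0.084 to 0.92).

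Within 1 class, *Dnmt3L ADD/ADD* was not set against the double mutant, which has no library in common with its class, no non-additive contrast was run, and *Casd1* did not pass the filter between MII oocytes and FGOs in the class of at least 80%. The exact test gave no value for the non-additive and allelic tests. The depth limits what can be read of *Pon2* and *Casd1* in oocytes, where single libraries held 0 to 41 counts, and 3 embryos with 1 that stands apart limit the allelic test.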
